A study of Homo sapiens with 4 samples.

Results

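The miR-181 family is a group of microRNAs (miRNAs) made from 6 hairpin genes. It was measured here with 7 assays of 737, chosen by name. hsa-miR-181a, hsa-miR-181b, hsa-miR-181c and hsa-miR-181d are the guide strands, and hsa-miR-181a*, hsa-miR-181a-2* and hsa-miR-181c* are the strands from the opposite arms of the hairpins. The prefix for human is left out below. The study profiled mature miRNAs by quantitative PCR in U2OS, a human osteosarcoma line, in 4 samples with 1 sample per group. Cells infected with lentivirus carrying a short hairpin RNA against DDX1 (shDDX1) were set against cells infected with a control short hairpin virus (shNS), and 2 µg/ml puromycin was used to select both. Cells given 500 ng/ml neocarzinostatin (NCS), which cuts both DNA strands, for 6 h were set against untreated cells. DDX1 is a DEAD-box RNA helicase, and the first comparison asks which miRNAs depend on it. The second asks which miRNAs move after DNA damage. With 1 sample per group no difference below has a replicate check, so no p-value or standard error is given. The panels hold no assay for DDX1 itself, so how far it was depleted is not analysed here.

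A miRNA gene is transcribed as a long primary transcript, from which Drosha cuts a hairpin and Dicer then cuts a duplex. The guide strand of the duplex is loaded into an Argonaute protein and pairs with messenger RNAs mainly through its seed, so guides that share a seed share many predicted targets. The miR-181 family is best known from blood cells, where miR-181a raises the sensitivity of mouse T cells to antigen by repressing several phosphatases. In tumour cells, miR-181a and miR-181b have been reported to repress ATM, a kinase of the double-strand break response, and miR-181d to repress the DNA repair enzyme MGMT.

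The 4 guides share the seed, bases 2 to 8, and the opposite strands do not. The mature strands are shown because each assay has to tell near-identical RNAs apart. Sequences are from RefSeq for GRCh38.p14, matched by name with * read as the 3p arm, and all 7 assays matched. Capitals mark the seed.
miR-181a: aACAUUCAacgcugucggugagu
miR-181b: aACAUUCAuugcugucggugggu
miR-181c: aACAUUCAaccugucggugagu
miR-181d: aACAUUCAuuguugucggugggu
miR-181a*: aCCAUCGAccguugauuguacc
miR-181a-2*: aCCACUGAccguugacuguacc
miR-181c*: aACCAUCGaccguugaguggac

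With positions counted from 1 at the 5′ end of the first-named strand, miR-181b and miR-181d differ by the substitution C12U only. miR-181a and miR-181c have 22 identical bases and differ by 1 base that miR-181c lacks. miR-181a and miR-181b differ by A9U, C10U and A21G. Of 2370 mature strands in the RefSeq table, 5 carry the seed ACAUUCA, the 4 guides and miR-4262, which has no well on the panels. The primers, and how well they separate these sequences, are not described in the labels.

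The genes lie in 3 clusters. MIR181A1 (chr1:198859044-198859153) and MIR181B1 (chr1:198858873-198858982) are 61 bases apart within the span of the long non-coding RNA gene MIR181A1HG. MIR181A2 (chr9:124692442-124692551) and MIR181B2 (chr9:124693710-124693798) are 1158 bases apart within the spans of MIR181A2HG and of NR6A1, a nuclear receptor gene. MIR181C (chr19:13874699-13874808) and MIR181D (chr19:13874875-13875011) are 66 bases apart within the span of NANOS3, an RNA-binding protein gene. All coordinates are of GRCh38.p14. miR-181a and miR-181b are therefore each the sum of a chromosome 1 and a chromosome 9 gene. The opposite strands tell the miR-181a genes apart, as the hairpins show, in which capitals mark both mature strands.
MIR181A1: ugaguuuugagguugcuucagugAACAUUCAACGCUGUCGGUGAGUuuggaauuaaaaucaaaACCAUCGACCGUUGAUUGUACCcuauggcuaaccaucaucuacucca
MIR181A2: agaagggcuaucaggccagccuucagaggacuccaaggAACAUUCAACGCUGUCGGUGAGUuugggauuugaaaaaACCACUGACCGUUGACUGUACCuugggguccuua

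miR-181a* comes from MIR181A1 and miR-181a-2* from MIR181A2, whereas the guide of both hairpins is the same sequence.

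The value of a well is its quantification cycle (Ct), where a later cycle means less template and 1 cycle is taken as 1 doubling. Each panel is a 384-well plate, and of 740 miRNA wells on both panels 723 read under Ct 35 in shDDX1, 732 in shNS, 591 in NCS-treated and 521 in untreated cells. Averaged over the 67.4% of these wells that read under 35 in every sample, Ct was 26.1, 25.8, 29.4 and 30.1 in that order, and no ratio was formed between pairs. Of 6 miRNAs typical of mesenchymal lines (miR-21, miR-31, miR-100, miR-125b, miR-221 and miR-222), all 6 were read in every sample, at Ct 16.6 to 27.4. The 6 blood-cell miRNAs (miR-142-3p, miR-142-5p, miR-144, miR-150, miR-223 and miR-451) were later in each sample, at Ct 26.3 to 29.1 in shDDX1, 25.7 to 28.4 in shNS, 28.3 to 33.3 in NCS-treated and 30.5 to 39.7 in untreated cells. Muscle miRNAs (miR-1, miR-133a, miR-133b and miR-206), miR-122 of liver and miR-124 of neurons gave no Ct before 27.5 in any sample.

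All 7 miR-181 assays read under Ct 35 in all samples. miR-181a was the earliest member in every sample, with Ct 20.6 in shDDX1, 20.9 in shNS, 26.3 in NCS-treated and 25.8 in untreated cells. miR-181b, its cluster partner on chromosomes 1 and 9, read Ct 23.6 in shDDX1, 23.1 in shNS, 26.9 in NCS-treated and 30.1 in untreated cells. It lay near miR-181a after NCS and far behind it in untreated cells. miR-181c read Ct 25.8 in shDDX1, 25.3 in shNS, 31.1 in NCS-treated and 33.3 in untreated cells, where it was the latest member. miR-181d, from the gene next to that of miR-181c, read Ct 26.4 in shDDX1, 25.6 in shNS, 28.4 in NCS-treated and 30.8 in untreated cells. The order of miR-181c and miR-181d was thus not the same in both pairs: miR-181c was ahead by 0.62 cycles in shDDX1 and 0.25 in shNS, and miR-181d was ahead in the other pair. Ct values of different assays also carry the efficiency of their primers, which was not given.

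The opposite strands did not all read later than the guides. miR-181a* read Ct 25.4 in shDDX1, 24.8 in shNS, 30.9 in NCS-treated and 30.7 in untreated cells, later than its guide throughout. miR-181a-2* read Ct 23.8 in shDDX1, 23.9 in shNS, 28.4 in NCS-treated and 27.7 in untreated cells. In untreated cells it was ahead of every guide but miR-181a by Ct as deposited. miR-181c* read Ct 26.6 in shDDX1, 27.4 in shNS, 29.6 in NCS-treated and 29.8 in untreated cells, behind its guide miR-181c in the lentiviral pair and ahead of it in the NCS pair. miR-181a-2* and miR-181c* are on panel II and the guides on panel I, and the part of the plates in this order was not tested. The authors' deposited normalized values shift the panels differently. There miR-181a-2* was at 27.23 in untreated cells, behind miR-181b at 26.32 and miR-181d at 27.21. In NCS-treated and untreated cells miR-181c* was there at 28.97 and 29.35, and miR-181c at 27.39 and 29.65. The water wells bear on miR-181c*: the earliest on its panel read Ct 26.5 in shDDX1 and 26.6 in shNS, no later than this assay. On panel I the earliest water well read 27.3 and 27.8 in these samples, later than each of the 5 members there. Water wells gave no Ct in NCS-treated or untreated cells.

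**Figure D1:**
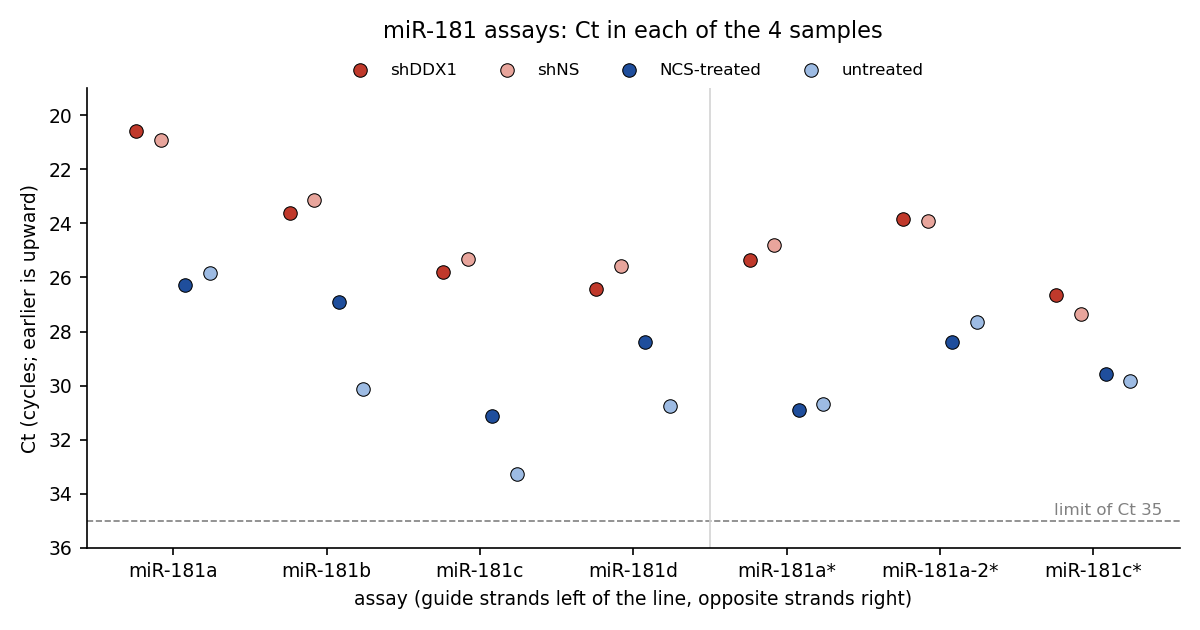
Ct in cycles (vertical axis, earlier cycles upward) of the 7 miR-181 assays in shDDX1, shNS, NCS-treated and untreated U2OS cells, 1 point per sample, with the Ct 35 limit dashed. miR-181a is earliest in every sample, and for miR-181b, miR-181c and miR-181d the NCS-treated point lies above the untreated one, at 26.9, 31.1 and 28.4 against 30.1, 33.3 and 30.8.

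To compare samples, the level of an assay was taken as minus its Ct, centred on the mean Ct of the wells read in all samples. On this scale 0 is the mean of those wells and 1 unit is a doubling. An assay was called higher or lower at 2-fold, a log2 ratio of 1 or more in size. Assays present on both panels gave a technical SD of a log2 ratio of 0.38 for shDDX1 over shNS and 0.79 for NCS treated over untreated (n = 7 assays). Without miR-423-5p, whose wells disagreed most after NCS, the second was 0.35 (n = 6).

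In shDDX1 cells the miR-181 guides stayed within 2-fold of shNS cells. In RNA from whole cultures, fewer cells with a miRNA and less of it per cell cannot be told apart. miR-181a had a level of 5.54 in shDDX1 and 4.93 in shNS, a log2 ratio of 0.61. miR-181b had a level of 2.52 in shDDX1 and 2.70 in shNS (log2 ratio -0.18), and miR-181c one of 0.34 in shDDX1 and 0.52 in shNS (-0.18). miR-181d had a level of -0.28 in shDDX1 and 0.26 in shNS, a log2 ratio of -0.55. The sizes for miR-181b and miR-181c were under the technical SD, and those for miR-181a and miR-181d under 2 SD. Of the opposite strands, miR-181c* had a level of -0.51 in shDDX1 and -1.53 in shNS, 2.02-fold higher, miR-181a-2* a log2 ratio of 0.38 and miR-181a* one of -0.27.

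So 1 of 7 assays was at least 2-fold higher and 0 were lower, where 11% of all 716 quantified miRNAs were higher and 17.3% lower. The family median log2 ratio was -0.18, against 0.04 over all of them. The only call, that of miR-181c*, was at the limit, and it was not kept in any of 6 other scalings, which gave 0.35 to 0.92. These were centring on the median, on small RNAs, on reference miRNAs, per panel or on the calibrator wells, and no centring. Its panel II zone had a median of 0.51 and its neighbouring wells one of 0.52. With each panel centred separately miR-181a was at 1.04, and against the small RNAs or the reference miRNAs miR-181d was at -1.21 and -1.01. The sign held for miR-181c* and miR-181d in all 7 scalings, none of which takes the position within a plate into account. The sign changed between scalings for miR-181a, miR-181a*, miR-181a-2*, miR-181b and miR-181c. miR-181b, miR-181c and miR-181d lie in the middle columns 7 to 18 of panel I. There the median was -0.82 and 41.1% of 185 quantified assays were lower. With neighbouring wells, panel zone or plate column subtracted, miR-181d was above 0, at 0.37, 0.27 and 0.25.

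After NCS the family parted. miR-181b was higher than in untreated cells by the most, with a level of 2.47 in NCS-treated and -0.01 in untreated cells, a log2 ratio of 2.48 or 5.57-fold. miR-181d had a level of 0.98 in NCS-treated and -0.66 in untreated cells, 3.13-fold higher. miR-181c had a level of -1.76 in NCS-treated and -3.18 in untreated cells, 2.67-fold higher.

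miR-181a and the opposite strands did not share these higher levels. miR-181a had a level of 3.08 in NCS-treated and 4.26 in untreated cells, 2.26-fold lower. miR-181a-2*, from the chromosome 9 hairpin, had a level of 0.997 in NCS-treated and 2.44 in untreated cells, 2.72-fold lower. miR-181a*, from the chromosome 1 hairpin, had a level of -1.54 in NCS-treated and -0.57 in untreated cells, a log2 ratio of -0.97. miR-181c*, the partner of miR-181c, had a level of -0.22 in NCS-treated and 0.27 in untreated cells, a log2 ratio of -0.49. The 3 assays that report on miR-181a genes were therefore all below 0 in each of 7 scalings, while in the authors' deposited tables miR-181a* was above 0.

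By count, 3 of 7 assays were at least 2-fold higher, where 16.9% of 498 quantified miRNAs were, and 2 of 7 were lower, where 22.3% were. All 3 that were higher are guides, and none of the opposite strands was. The median log2 ratio was 1.53 over the 4 guides and -0.97 over the 3 opposite strands, against -0.38 over all quantified miRNAs. In the authors' deposited fold table the NCS values were 7.58-fold for miR-181b, 5.45 for miR-181d, 4.8 for miR-181c, 0.851 for miR-181a, 0.62 for miR-181a-2*, 1.14 for miR-181a* and 1.3 for miR-181c*. That table has no further centring.

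**Figure D2:**
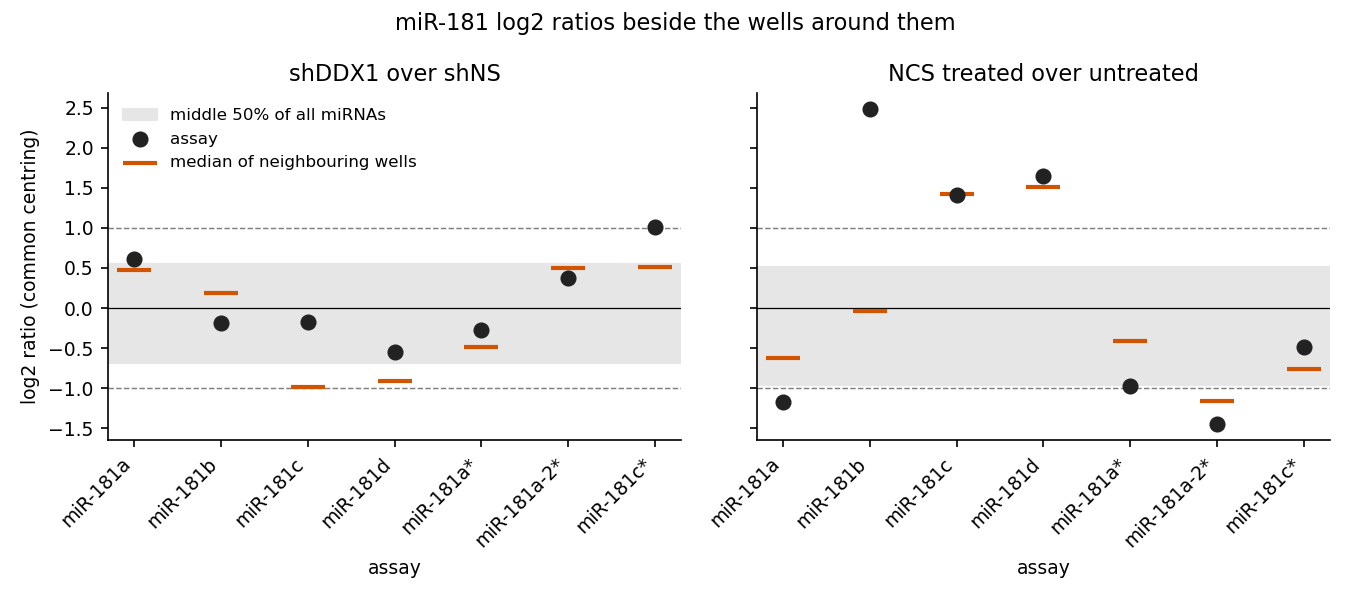
Log2 ratio (vertical axis, common centring) of each miR-181 assay, shDDX1 over shNS on the left and NCS treated over untreated on the right, as black points, 1 value each. Orange bars are the median of miRNA wells within 2 rows and 2 columns on the plate, grey bands run from the lower to the upper quartile of all quantified miRNAs, and dashed lines mark 2-fold. After NCS the bars of miR-181c and miR-181d lie at 1.43 and 1.51, close to the assays themselves, and that of miR-181b at -0.03.

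Plate position moved with this split. miR-181b, miR-181c and miR-181d sit in wells N7, J14 and E16 of panel I, in its middle columns 7 to 18, where the median log2 ratio after NCS was 1.21 and 55.8% of 113 quantified assays were at least 2-fold higher. miR-181a and miR-181a* sit in wells O2 and A23, in the outer columns, where the median was -0.16 and 10% were higher. miR-181a-2* and miR-181c*, in wells H13 and J7 of panel II, lie in middle columns with a median of -0.96. The part of plate position in the split was not tested.

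The wells around each member give a closer measure. Around miR-181b, 17 of 24 neighbouring wells were quantified in both NCS samples and their median log2 ratio was -0.03. With that median subtracted miR-181b was 5.7-fold higher after NCS. Its well borders the outer columns, so its neighbours lay in both zones. With the median of its plate column subtracted, from 6 quantified assays, miR-181b was at a log2 ratio of 1.61. Of the 112 other quantified assays in the middle columns of panel I, 34 had a higher log2 ratio. Around miR-181c the median of 14 quantified neighbours was 1.43, and around miR-181d that of 18 was 1.51. Subtracting them left log2 ratios of -0.01 for miR-181c and 0.14 for miR-181d, so that neither stood out from the wells around it. With the median of the plate column subtracted instead, miR-181d was at 1.69 and miR-181c at -0.58. These column medians came from 8 quantified assays for miR-181d and 10 for miR-181c. The one for miR-181d was -0.05, against 1.21 over the middle columns. For miR-181a and miR-181a-2*, subtraction of the neighbouring wells left -0.55 and -0.29, both within 2-fold. miR-181b was at least 2-fold higher with the common centring and in all 14 other settings, from 1.32 with its panel zone subtracted to 3.27 against the small RNAs. These settings are not independent checks. The other Ct limits could only return the common-centring value, and both authors' tables gave 2.92. With each panel centred separately miR-181c was at 0.61 and miR-181d at 0.84, also within 2-fold, while miR-181a was at -1.98 and miR-181a* at -1.77, both at least 2-fold lower.

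**Figure D3:**
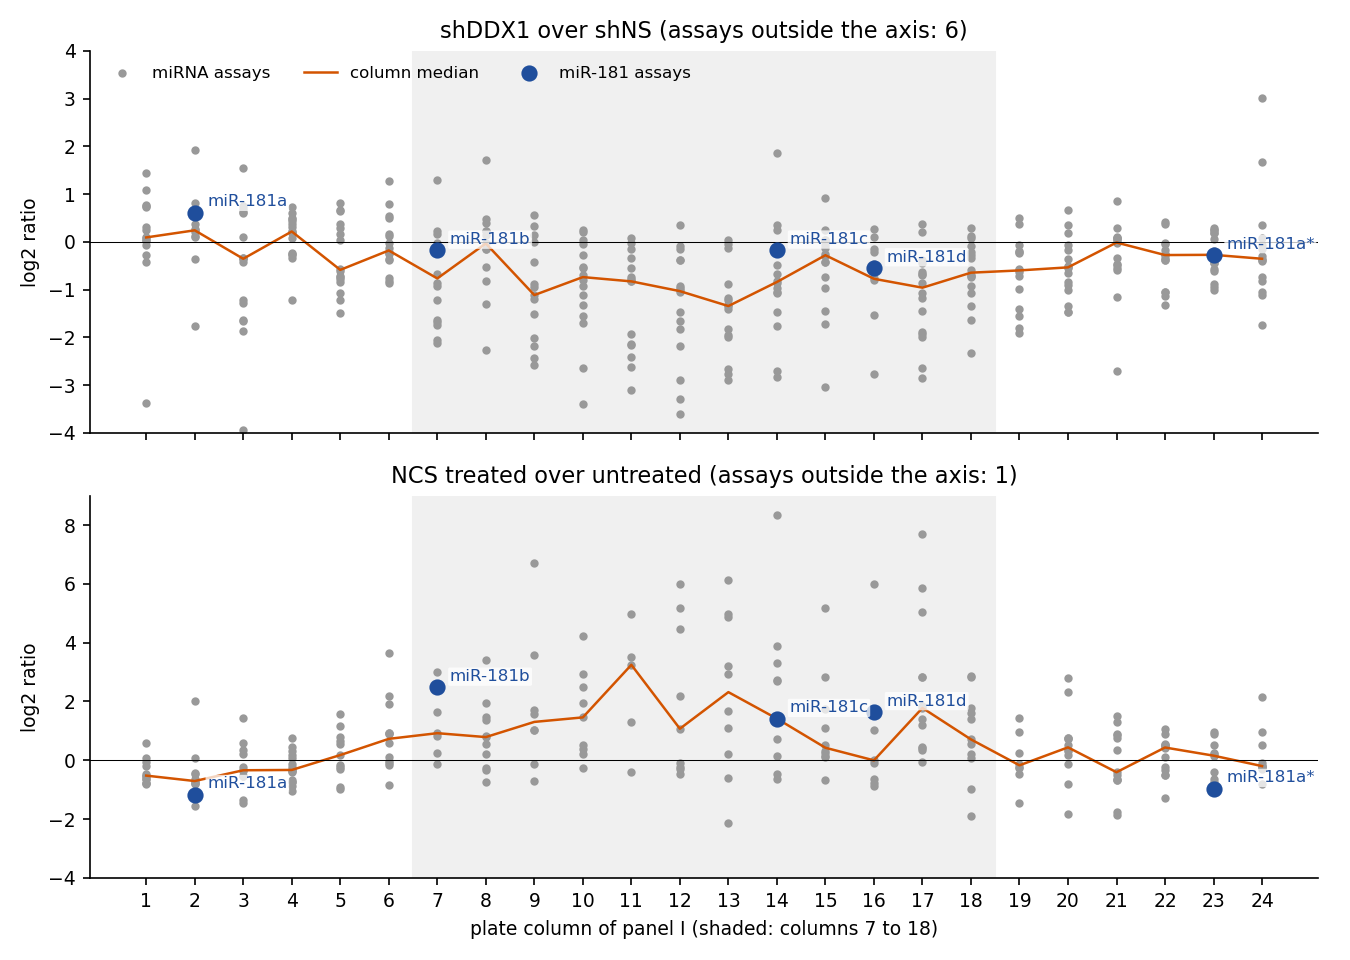
Log2 ratio (vertical axis) of panel I miRNA assays by plate column (horizontal axis), shDDX1 over shNS above and NCS treated over untreated below, with the column median in orange, miR-181 assays in blue and columns 7 to 18 shaded. After NCS the 3 guides that were higher lie in the shaded columns, and miR-181a and miR-181a* outside them at -1.17 and -0.97.

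Differences between members on the same panel do not depend on how a sample is centred. After NCS the log2 ratio of miR-181a minus that of miR-181b was -3.65, a 12.6-fold change in their proportion. The gap between their Ct values was 0.61 cycles in NCS-treated and 4.26 in untreated cells, against 3.02 in shDDX1 and 2.23 in shNS. The genes of these guides lie side by side at both loci. miR-181a minus miR-181d was -2.82 and miR-181a minus miR-181c was -2.59. After subtraction of neighbouring wells these were -0.69 and -0.54, and miR-181a minus miR-181b was -3.06. The other position subtractions left a smaller gap between miR-181a and miR-181b. Their log2 ratios were -1.03 and 1.32 with the panel zone subtracted, and -0.51 and 1.61 with the plate column subtracted. In the authors' deposited normalized table the same differences were -3.16 for miR-181b, -2.68 for miR-181d and -2.50 for miR-181c. Repeated assays put the SD of such a difference at 1.12. That SD came from 7 assays repeated across the panels, so it also holds differences between plates. The largest of these was 2.71, for miR-423-5p.

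Some other pairs within a hairpin or cluster lay closer together after NCS, and some did not. miR-181a* minus miR-181b, which share the chromosome 1 cluster, was -3.45. miR-181c and miR-181c*, of 1 hairpin but on different panels, had NCS log2 ratios of 1.41 and -0.49. With each panel centred separately these were 0.61 and 0.34. miR-181a and miR-181a* of the MIR181A1 hairpin had a difference of -0.21 in their NCS log2 ratios, with Ct gaps of 4.62 in NCS-treated and 4.83 in untreated cells, and one of 0.88 in shDDX1 over shNS. miR-181c minus miR-181d was -0.23 after NCS and 0.37 in shDDX1 over shNS. miR-181b minus miR-181d, guides of different clusters that are 1 substitution apart, was 0.83 after NCS, and 2.37 once neighbouring wells were subtracted. Of 11 pairs on the same panel 7 were at least 2-fold apart after NCS, 6 of them by more than 2 SD, and 1 was in shDDX1 over shNS. Those 6 each set miR-181a or miR-181a*, in outer columns of panel I, against miR-181b, miR-181c or miR-181d in its middle columns. The medians of these zones after NCS were -0.16 and 1.21. The pairs share members, and the share among all pairs of assays on a panel was not computed. In shDDX1 over shNS the pair was miR-181a and miR-181d at 1.16, and after subtraction of neighbouring wells it stood at -0.23.

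Set side by side, the comparisons share no sample. The log2 ratios in shDDX1 over shNS and in NCS treated over untreated had opposite signs for 6 of 7 members, all but miR-181a*, where 74.2% of 496 miRNAs quantified in both had opposite signs. With each panel centred separately this held for 3 of 7 members and 65.7% of the 496, and with neighbouring wells subtracted for 4 of 7 members and 60.7% of the 496. As points in the plane of both ratios, miR-181c and miR-181d were 0.44 apart, miR-181a and miR-181a-2* 0.36, and miR-181a and miR-181b 3.74. Likeness of sequence did not order these distances, taken with the common centring: miR-181b and miR-181d were 0.91 apart, while miR-181a and miR-181c, also 1 base apart, were at 2.71. With neighbouring wells subtracted the second pair was the closer one. In shDDX1 over shNS and after NCS, miR-181a minus miR-181c was then -0.67 and -0.54. For miR-181b minus miR-181d these were -0.74 and 2.37.

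**Figure D4:**
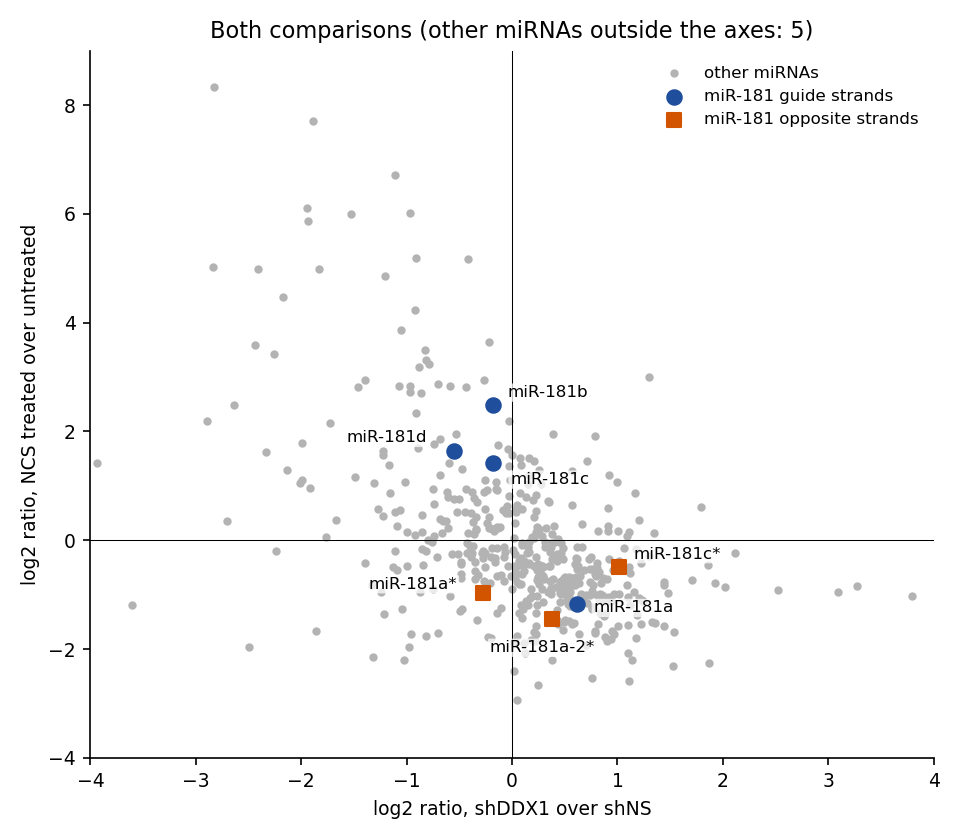
Log2 ratio of NCS treated over untreated (vertical axis) against that of shDDX1 over shNS (horizontal axis) for miRNAs quantified in both, 1 point per assay, with miR-181 guides as blue circles and opposite strands as orange squares. miR-181b, miR-181c and miR-181d lie together at 1.41 to 2.48 on the vertical axis, and miR-181a lies with the opposite strands between -1.45 and -0.49.

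The assays nearest to each guide in that plane, over all 496, lay on panel I for miR-181b, miR-181c and miR-181d and on panel II for miR-181a. Nearest to miR-181b were miR-362-5p at a distance of 0.32, miR-152 at 0.43 and miR-21 at 0.48, in panel I columns 6, 17 and 10. miR-181c was nearest to miR-17 at 0.06, miR-20a at 0.15 and miR-766 at 0.23, in panel I columns 8, 8 and 9. miR-181d was nearest to miR-9 at 0.22, miR-30e at 0.23 and miR-92b at 0.25, in panel I columns 19, 18 and 17. The nearest to miR-181a were miR-454*, miR-105* and miR-1271, at 0.08, 0.08 and 0.09.

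Other seed families made from several genomic clusters also spread after NCS. The let-7 and miR-98 family had 3 assays higher and 3 lower of 15 quantified, from let-7i* at -1.79 to let-7a at 7.71. The miR-30 family had 2 higher and 1 lower of 8, from miR-30c-1* at -1.15 to miR-30e* at 3.19, and the miR-15 family 2 higher and 1 lower of 10, from miR-15a* at -2.67 to miR-16 at 4.98. The miR-181 assays ranged from -1.45 to 2.48, less widely than each of these larger lists. In shDDX1 over shNS the miR-181 assays ranged from -0.55 to 1.02, and the other families from let-7f at -2.57 to let-7i* at 1.18, from miR-30b* at -1.66 to miR-30c-1* at 0.71 and from miR-16 at -2.41 to miR-16-2* at 1.48. Those families had 4 of 18, 4 of 11 and 3 of 11 assays at least 2-fold lower, and the miR-181 family 0 of 7. Over all 716 quantified miRNAs 17.3% were lower. No difference between families was tested.

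Scaling set the sign of several members. The reference assays themselves had log2 ratios, in shDDX1 over shNS and in NCS treated over untreated, of 1.0 and -0.55 for U6, 0.54 and -0.97 for SNORD38B, and 0.45 and -0.85 for SNORD49A. For miR-103 these were 0.45 and -0.77, for miR-191 0.37 and -0.88, and for miR-423-5p 0.57 and 0.65. Against the small RNAs the median of all miRNAs moved by -0.67 in shDDX1 over shNS and by 0.79 in NCS treated over untreated, and without centring by -0.30 and 0.73. Against the reference miRNAs the shifts were -0.46 and 0.33, and with plates set to their calibrators -0.10 and 0.43. With each panel centred separately the second was 0.19. After NCS higher assays made up 43.1% of all past 2-fold with the common centring, and 40% with each panel centred separately. The share was 86.3% against small RNAs, 83.2% without centring, 61.1% against reference miRNAs and 70.2% with plates set to calibrators. In shDDX1 over shNS it was 38.9% with the common centring and 33.3% with each panel centred separately. The other settings, in the same order, gave 8.54%, 19.3%, 13.2% and 27.4%. miR-181b had the highest log2 ratio of the 7 members after NCS in each of the 7 scalings, and miR-181a or miR-181a-2* the lowest. Each scaling moved all members of a panel by the same amount, so their order within a panel could not change.

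**Figure D5:**
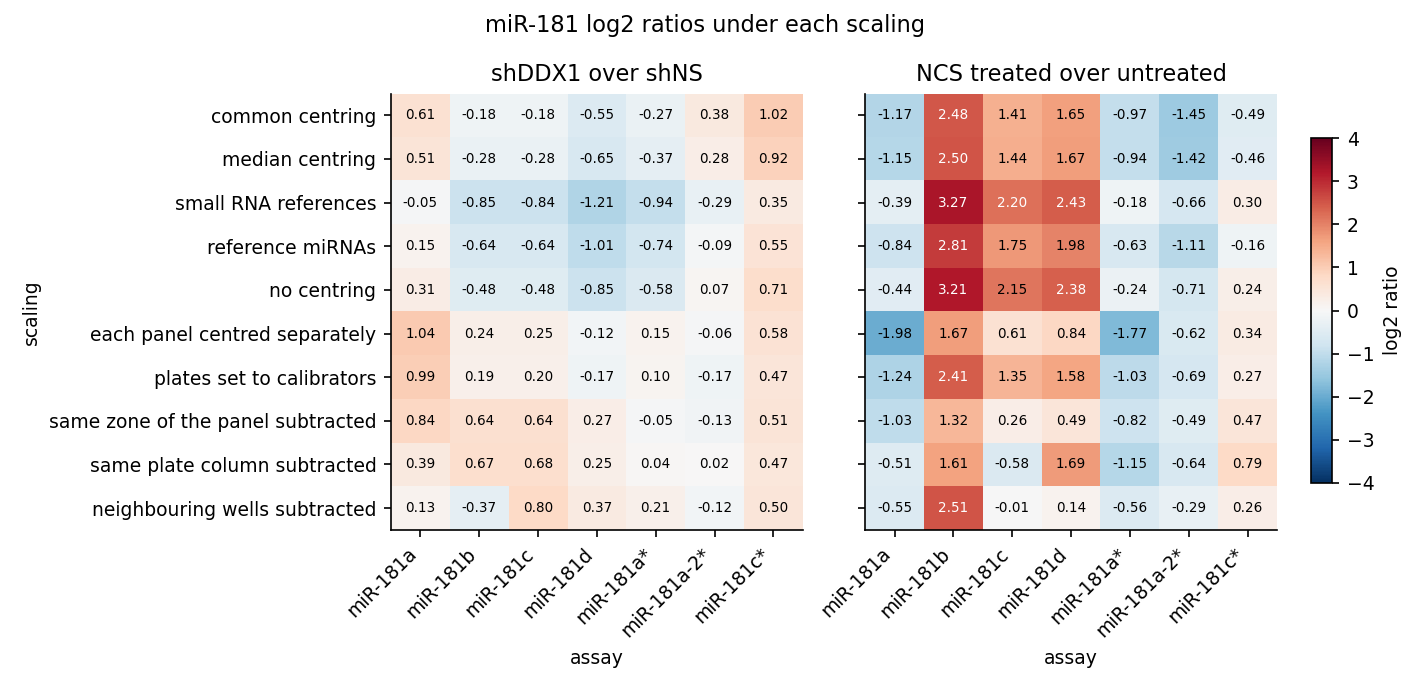
Log2 ratio, printed and coloured, of each miR-181 assay (columns) under each scaling (rows), shDDX1 over shNS on the left and NCS treated over untreated on the right, 1 value per cell. After NCS the miR-181b column is at 1.32 or above throughout, and miR-181c and miR-181d are at -0.01 and 0.14 in the lowest row, where neighbouring wells are subtracted.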

How the data were processed

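The authors deposited quantification cycles (Ct), a score on a log scale, for 768 wells of 2 Exiqon panels per sample, with RNA from Trizol and SYBR Green detection, per the labels. The labels name no instrument, threshold or baseline. They also deposited shifted Ct values, moved by a constant per panel in the shNS and shDDX1 samples and by a shift that differed between wells in the NCS pair, and linear fold values of each sample over its control.

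The Ct table was used here with Python 3.11.15, numpy 2.4.6 and pandas 2.3.3. Wells were assigned to samples by column title. Levels were centred on miRNA wells under Ct 35 in all samples, an assay counted as quantified under 35 in both samples of a pair, and repeated wells of an assay were averaged. Neighbours are miRNA wells within 2 rows and 2 columns. The code was tested on simulated plates with known ratios and no effect of plate position, so that test does not bear on such an effect. Depth cannot be stated for Ct values, and the number of wells and samples limits precision.

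Named were all members, the 3 assays nearest to each guide, the lowest and highest member of 3 comparison families and the reference assays. Members, lists and alternatives were chosen with earlier results of these data known. Alternatives were 6 scalings, subtraction of neighbouring wells, the authors' tables, Ct limits of 37, 32 or none, and thresholds of 1.5-fold and 4-fold. Subtraction of the panel zone or plate column was added after seeing the data.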

Additional observations from a re-analysis of the deposited data

Results flagged for a closer look

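Water wells lie outside the main measurement and gave a Ct in the lentiviral pair only. Of 9 such wells 7 gave a Ct in shDDX1 and 6 in shNS, and 0 did in NCS-treated or untreated cells. On panel I the earliest read Ct 27.3 in shDDX1 and 27.8 in shNS, and on panel II 26.5 in shDDX1 and 26.6 in shNS. Of the miR-181 assays, miR-181c* read Ct 26.6 in shDDX1 and 27.4 in shNS, at or later than the earliest water well of its panel, and the other 6 were earlier than theirs. The part of background signal in miR-181c* was not tested.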

How the results depend on the processing

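With 1 sample per group no left-out replicate could be run, and nothing could be paired. No paired analysis was possible because groups hold only 1 sample each. In shDDX1 over shNS the family median of -0.18 became -0.84 against small RNAs, -0.64 against reference miRNAs, 0.24 with each panel centred separately, 0.21 with neighbouring wells subtracted, 0.51 with the panel zone subtracted, 0.39 with the plate column subtracted, 0.19 with plates set to calibrators, and -0.48 without centring and in both authors' tables. The 1 assay higher became 0 with neighbouring wells, zone or plate column subtracted, with the median, calibrators, small RNAs or reference miRNAs as base, without centring, in both authors' tables and at 4-fold, and 2 at 1.5-fold. The 0 lower became 1 against small RNAs and against reference miRNAs. After NCS the median of -0.49 became 0.34 with each panel centred separately, 0.38 in both authors' tables, 0.30 against small RNAs, 0.24 without centring, 0.27 with plates set to calibrators and 0.26 with the zone subtracted. The 3 higher became 1 with each panel centred separately, with neighbouring wells subtracted, with the zone subtracted and at 4-fold, and 2 with the plate column subtracted and under Ct 32. The 2 lower became 0 against small RNAs, without centring, with neighbouring wells subtracted, in both authors' tables and at 4-fold, and 1 against reference miRNAs, with the zone and with the plate column subtracted. miR-181c turned to -0.012 after NCS with neighbour subtraction and -0.58 with plate column subtraction, and miR-181a minus miR-181d in shDDX1 over shNS to -0.23 after neighbour subtraction. The 7 pairs at least 2-fold apart after NCS became 4 with neighbouring wells subtracted. The cause of these changes was not tested. Ct limits of 37, 32 or none only decided which assays counted as quantified, because the wells used for centring stayed the same. The value of a member still quantified could not move, so these limits do not check it. Under Ct 32 miR-181c was not quantified after NCS and the median was -0.73. Water wells at Ct 26.5 limit what can be read from late assays of the lentiviral pair.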

Other observations

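In the authors' deposited normalized table, the shift from deposited Ct in the NCS pair differed between miR-181 wells of the same panel. On panel I it was -3.63 cycles in NCS-treated and -3.42 in untreated cells for miR-181a, and -3.79 in untreated cells for miR-181b. For miR-181a* it was -4.67 in NCS-treated and -4.24 in untreated cells, so that its deposited fold was 1.14 where the common centring gave a log2 ratio of -0.97. On panel II miR-181a-2* was shifted by -0.45 in NCS-treated and -0.43 in untreated cells.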
